A study of Caenorhabditis elegans with 72 samples.

Results

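*nfki-1* mutants and *malt-1* mutants of *C. elegans*, both also carrying the *npr-1* mutation, were compared gene by gene in RNA from whole animals. The genes taken were those of the deposited table with at least 1 FPKM (the number of fragments of a gene, divided by its transcript length and by the size of the library) in either genotype, 13992 of the 46624 genes listed, and each was described by the ratio of its FPKM in *nfki-1* over *malt-1* mutants. At the edge of this minimum, *F31E9.3* had 1.00 FPKM in *nfki-1* and 0.978 FPKM in *malt-1* mutants and was taken, while *C18D11.6* had 0.255 FPKM in *nfki-1* and 0.999 FPKM in *malt-1* mutants and was not. The minimum was reached only in *nfki-1* mutants by 599 genes and only in *malt-1* mutants by 548. For those genes the direction of the ratio follows from the minimum itself. The series holds 4 genotypes at the late L4 stage, the last larval stage: *nfki-1*, *malt-1* and *ilc-17.1* mutants, each a double mutant with *npr-1*, and *npr-1* animals, which served as their control. The labels give AX204 as the strain background of all of them, so that every animal compared here lacked normal *npr-1* function. The alleles of the sequenced strains are not given in the sources used here. The labels list 18 samples for each genotype, 72 in all, and the study's methods give 6 biological replicates for *nfki-1* mutants, *malt-1* mutants and *npr-1* animals and 5 for *ilc-17.1* mutants.

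The table gives 1 FPKM per genotype in each comparison of a pair of genotypes, which is the authors' value over all replicates. Values per sample were not given in it, so the spread between replicates and the depth are unknown, no SD or interval can be attached to any value below, and no difference was tested. A ratio of at least 1.5, or of at most 0.667, was taken as past the fold, as a fixed rule of size, and "higher" or "lower" below compares the authors' values and nothing more. FPKM of *npr-1* animals and *ilc-17.1* mutants came from their own comparisons and were scaled separately. Of the same gene in *nfki-1* mutants, the value in the comparison with *malt-1* differed from that in the comparison with *npr-1* by a median of -0.000992 on the log2 scale, and in *malt-1* mutants by a median of 0.0162.

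IL-17 is a secreted cytokine. In *C. elegans* the ligand ILC-17.1 acts on neurons through the receptors ILCR-1 and ILCR-2, and the signal passes through the adaptor ACTL-1, the kinase PIK-1, an IRAK homolog, the paracaspase MALT-1 and NFKI-1, a protein related to the IκB family. Mammalian MALT1 acts as a scaffold and as a protease, whereas IκB-like proteins bind transcription factors, and atypical members of the family act in the nucleus. *npr-1* encodes a neuropeptide receptor whose loss makes animals avoid high oxygen and gather in groups, a behavior to which IL-17 signaling contributes. The comparison of both mutants asks where loss of one member of the complex left RNA levels unlike those left by loss of the other.

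The mutated genes came first, as a check of the labels. *nfki-1* (WBGene00007877) had 8.93 FPKM in *nfki-1* mutants, against 18.2 FPKM in *malt-1* mutants, 23.5 FPKM in *ilc-17.1* mutants and 24.1 FPKM in *npr-1* animals, a ratio of 0.491 over *malt-1* mutants. *malt-1* (WBGene00017702) had 6.35 FPKM in *nfki-1* mutants, against 4.03 FPKM in *malt-1* mutants, with 8.29 FPKM in *ilc-17.1* mutants and 6.54 FPKM in *npr-1* animals, a ratio of 1.58. Each gene was therefore lowest in its own mutant, and neither was listed at 0. The table gives *nfki-1* a locus on chromosome X, 15355238 to 15363861, that 2 genes share, and *malt-1* a locus on chromosome II, 6928770 to 6951300, that 4 genes share.

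The other genes of the pathway had nearly equal values in both mutants. The receptor gene *ilcr-1* had 7.73 FPKM in *nfki-1* and 7.80 FPKM in *malt-1* mutants, and *ilcr-2* had 32.5 FPKM in *nfki-1* and 29.04 FPKM in *malt-1* mutants. The adaptor gene *actl-1* had 6.09 FPKM in *nfki-1* and 6.29 FPKM in *malt-1* mutants, and the kinase gene *pik-1* had 9.78 FPKM in *nfki-1* and 10.1 FPKM in *malt-1* mutants. *tir-1*, which encodes a TIR-domain protein upstream of the p38 kinase cascade, had 12.9 FPKM in *nfki-1* and 13.4 FPKM in *malt-1* mutants. The ligand gene *ilc-17.1* lay below the minimum of 1 FPKM, at 0.222 FPKM in *nfki-1* and 0.227 FPKM in *malt-1* mutants. Ratios of these 6 genes lay between 0.960 and 1.12.

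Most genes had similar values in both mutants. Of the 13992 genes, 13362 had a value above 0 in both and thus a ratio, and 12114 of these (90.7%) lay within the fold. In *nfki-1* over *malt-1* mutants 804 genes were higher (6.02% of those with a ratio) and 444 were lower (3.32%), and the median log2 ratio over all genes was 0.0067. At 2-fold the numbers were 304 higher and 209 lower. Among the 11931 protein-coding genes with a ratio, 491 were higher (4.12%) and 235 lower (1.97%), and 5% of the log2 ratios lay below -0.36 and 5% above 0.53. The sum of FPKM over the table was 1270460 in *nfki-1* and 1374780 in *malt-1* mutants. Scaling both to equal sums adds 0.11 to every log2 ratio, after which 1146 genes were higher and 348 lower, so that higher genes made up 76.7% of those past the fold, against 64.4% as deposited. The shares were then 8.58% higher and 2.60% lower. A list median with a size below that shift can take the other sign, which is said beside each median below that did.

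The remaining 630 genes had no finite log2 ratio and were given no ratio, since they were listed at 0 in one genotype, 329 of them in *nfki-1* and 301 in *malt-1* mutants. Only 24 of these 630 were protein-coding. A value of 0 in this table need not mean that a transcript was absent, because 25637 genes, 3264 of them among the 19701 protein-coding genes, were listed at 0 in every genotype. Markers of an organ that every such animal has were among them, as 8 of 10 pharynx markers were. So were 23 of 29 molting genes and 93 of 176 cuticle collagen genes, and which of these late L4 animals use was not tested. The study's methods exclude genes that oscillate during development, and whether the genes at 0 are those genes was not tested.

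Shares past the fold in the other pairs of genotypes, taken the same way, are given side by side, although pairs that share a genotype share its libraries. Past the fold in either direction were 9.34% of genes in *nfki-1* over *malt-1*, 10.17% in *malt-1* over *ilc-17.1* and 13.8% in *nfki-1* over *ilc-17.1* mutants. Against *npr-1* animals the shares were 18.7% for *nfki-1*, 10.7% for *malt-1* and 14.8% for *ilc-17.1* mutants. By direction, 13.8% were higher and 4.93% lower in *nfki-1* over *npr-1*, 6.18% higher and 4.5% lower in *malt-1* over *npr-1*, and 9.71% higher and 5.07% lower in *ilc-17.1* over *npr-1*. Over *ilc-17.1* mutants, 8.98% were higher and 4.81% lower in *nfki-1* mutants, and 3.83% higher and 6.34% lower in *malt-1* mutants.

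The share past the fold depended on the level of a gene. Among protein-coding genes whose larger FPKM was between 1 and 5, 8.996% were higher and 6.82% lower, and among those between 10 and 50 FPKM 2.61% were higher and 0.796% lower. Of the 1566 protein-coding genes at 100 FPKM and over, 53 were higher (3.38%) and 9 were lower (0.575%). Their median log2 ratio was -0.11, and 0.0044 at equal sums, so that it lay below equality only as deposited, while the few genes past the fold were mostly higher. Noncoding genes varied more, with 32.9% of 584 genes typed as ncRNA higher and 22.8% lower, and 33.04% of 115 snoRNA genes higher and 24.3% lower, in libraries selected for polyA RNA. Of the nuclear chromosomes, III had the smallest share past the fold (6.09%) and X the largest (12.5%).

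**Figure D1:**
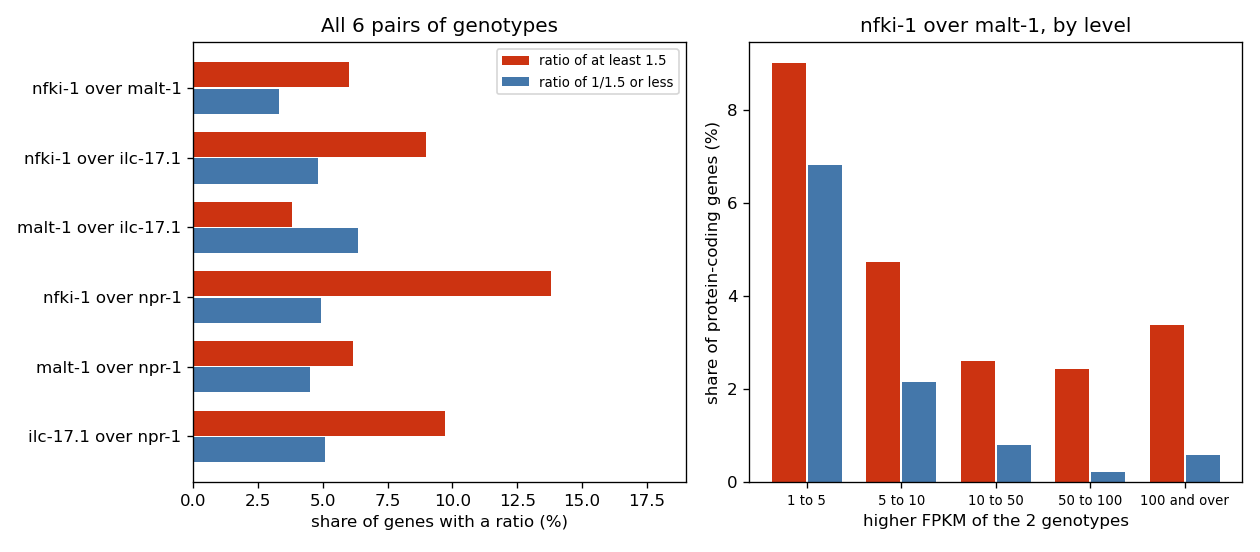
Share of genes past the 1.5-fold rule, in percent, with genes of a higher ratio in red and of a lower ratio in blue. The left plot gives all 6 pairs of genotypes (6.02% higher and 3.32% lower for *nfki-1* over *malt-1*) and the right plot gives the protein-coding genes of *nfki-1* over *malt-1* by the larger of both FPKM values, where the share lower is 0.575% at 100 FPKM and over.

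The vitellogenin genes, which encode yolk proteins that the intestine makes for the oocytes of adult hermaphrodites, were all higher in *nfki-1* than in *malt-1* mutants. All 6 were past the fold, with ratios between 1.67 and 2.34 and a median log2 ratio of 0.94, where 6.02% of all genes were higher. *vit-2* (chromosome X, 5101032 to 5106173) had 480 FPKM in *nfki-1*, 205 FPKM in *malt-1* and 471 FPKM in *ilc-17.1* mutants, and 168 FPKM in *npr-1* animals. *vit-6* (chromosome IV, 8261007 to 8266462) had 714 FPKM in *nfki-1*, 348 FPKM in *malt-1* and 677 FPKM in *ilc-17.1* mutants, and 219 FPKM in *npr-1* animals. *vit-5* (chromosome X, 3403471 to 3408603) had 137 FPKM in *nfki-1*, 63.7 FPKM in *malt-1* and 168 FPKM in *ilc-17.1* mutants, and 38.5 FPKM in *npr-1* animals. In each of these genes *malt-1* mutants thus lay between *npr-1* animals and the other mutants, nearer to *npr-1* animals. *vit-1* had 78.6 FPKM in *nfki-1* and 47.1 FPKM in *malt-1* mutants, *vit-3* had 33.2 FPKM in *nfki-1* and 19.4 FPKM in *malt-1* mutants, and *vit-4* had 22.7 FPKM in *nfki-1* and 12.6 FPKM in *malt-1* mutants. Vitellogenin genes have near-identical copies that can share reads, so the single members are uncertain. Of 8 intestine markers 0 were past the fold, where 90.7% of all genes lay within it. Their ratios lay between 0.921 and 1.30, and their median log2 ratio of -0.0048 was 0.11 at equal sums. *asp-1*, an aspartyl protease gene, had 2849 FPKM in *nfki-1* and 2898 FPKM in *malt-1* mutants. *act-5*, the intestinal actin gene, had 1394 FPKM in *nfki-1* and 1380 FPKM in *malt-1* mutants. Whether the amount of intestine differed was not tested.

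Cuticle collagen genes, which the hypodermis transcribes in waves before each molt, were the list with the most abundant genes past the fold. Of 42 with at least 1 FPKM, 20 were higher and 0 lower, where 6.02% of all genes were higher and 3.32% lower. Their median log2 ratio was 0.54, and 31 of 42 had a ratio above 1 against 51.2% of all genes. *col-19*, a gene of the adult cuticle named after its values were seen, had 403 FPKM in *nfki-1* and 248 FPKM in *malt-1* mutants, with 292 FPKM in *ilc-17.1* mutants and 359 FPKM in *npr-1* animals. *col-124*, also named after its values were seen, had 1340 FPKM in *nfki-1* and 796 FPKM in *malt-1* mutants, with 933 FPKM in *ilc-17.1* mutants and 966 FPKM in *npr-1* animals. In both of these genes *malt-1* mutants had the lowest value of all genotypes and *nfki-1* mutants the highest. Summed over the list, FPKM was 26196 in *nfki-1*, 22874 in *malt-1* and 20981 in *ilc-17.1* mutants, and 21042 in *npr-1* animals, so that *malt-1* mutants were not the lowest there. The collagen genes picked by the rule for named genes were of lower level. *col-7* had 24.3 FPKM in *nfki-1* and 13.1 FPKM in *malt-1* mutants, and *col-62*, its near neighbor on chromosome I, had 25.4 FPKM in *nfki-1* and 14.4 FPKM in *malt-1* mutants. *col-137* had 24.1 FPKM in *nfki-1* and 12.7 FPKM in *malt-1* mutants, against 45.1 FPKM in *ilc-17.1* mutants and 97.8 FPKM in *npr-1* animals, and so differed more from *npr-1* animals than between both mutants. *col-135* had 1.59 FPKM in *nfki-1* and 0.604 FPKM in *malt-1* mutants, a ratio of 2.63 at a level near the minimum.

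The most abundant collagen genes did not share this difference. *col-38* had 2960 FPKM in *nfki-1* and 3217 FPKM in *malt-1* mutants, *col-71* had 2827 FPKM in *nfki-1* and 2682 FPKM in *malt-1* mutants, and *bli-6* had 2612 FPKM in *nfki-1* and 2662 FPKM in *malt-1* mutants. *bli-1* and *bli-2*, which encode collagens of the struts of the adult cuticle, were on the other side of equality, with 222 FPKM in *nfki-1* and 267 FPKM in *malt-1* mutants for *bli-1*, and 898 FPKM in *nfki-1* and 1202 FPKM in *malt-1* mutants for *bli-2*. These 5 genes were chosen after their values were seen. Of 9 heterochronic genes, which act in the timing of larval development, 4 were listed at 0 in every genotype and 4 had at least 1 FPKM. Whether both mutants were of the same age was not tested. *lin-28*, an RNA-binding protein gene of the heterochronic pathway, had 34.3 FPKM in *nfki-1* and 33.6 FPKM in *malt-1* mutants, and *lin-14* had 21.4 FPKM in *nfki-1* and 18.4 FPKM in *malt-1* mutants. Past the fold were 0 of 4 heterochronic genes, where 90.7% of all genes lay within it. Of the molting genes, only *nekl-3* (22.5 FPKM in *nfki-1* and 27.1 FPKM in *malt-1* mutants) and *let-4* (20.9 FPKM in *nfki-1* and 28.1 FPKM in *malt-1* mutants) had at least 1 FPKM. Of 8 hypodermis markers 5 were listed at 0 and only *lin-26* reached the minimum, at 45.4 FPKM in *nfki-1* and 43.7 FPKM in *malt-1* mutants.

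**Figure D2:**
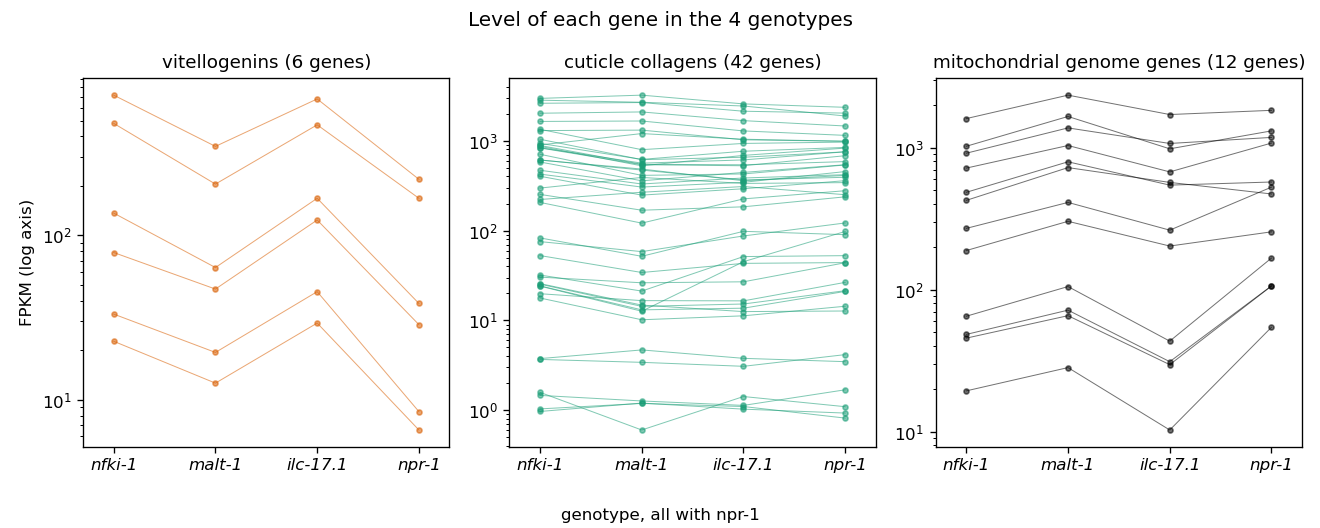
FPKM on a log axis in the 4 genotypes for the 6 vitellogenin genes, the 42 cuticle collagen genes with at least 1 FPKM, and the 12 protein-coding genes of the mitochondrial genome, with 1 point per gene and genotype and thin lines joining the values of 1 gene. Every vitellogenin gene is higher in *nfki-1* than in *malt-1* mutants, and every mitochondrial gene is lower in *nfki-1* than in *malt-1* mutants.

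Genes of oocytes and the eggshell all had a ratio above 1. In whole animals, fewer cells of a type and less RNA per cell cannot be told apart. All 25 genes of this list had higher values in *nfki-1* than in *malt-1* mutants, with ratios between 1.01 and 1.74 and a median log2 ratio of 0.33, and 4 of 25 were past the fold, where 51.2% of all genes had a ratio above 1 and 6.02% were higher. *perm-4* and *perm-2*, neighbors on chromosome IV that encode proteins of the outer eggshell, had 273 FPKM in *nfki-1* and 157 FPKM in *malt-1* mutants for *perm-4*, and 242 FPKM in *nfki-1* and 146 FPKM in *malt-1* mutants for *perm-2*. *puf-5*, an RNA-binding protein gene of oocytes, had 35.4 FPKM in *nfki-1* and 23.05 FPKM in *malt-1* mutants, and *egg-1*, which encodes an oocyte surface protein needed for fertilization, had 30.3 FPKM in *nfki-1* and 20.0 FPKM in *malt-1* mutants. Summed over the list, FPKM was 1399 in *nfki-1*, 1017 in *malt-1* and 1339 in *ilc-17.1* mutants, and 1142 in *npr-1* animals, so that *malt-1* mutants were the lowest.

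Sperm genes followed the same direction. All 29 genes of major sperm proteins, the cytoskeletal proteins of nematode sperm, had a ratio above 1, with a median log2 ratio of 0.31, and 4 were past the fold, where 6.02% of all genes were higher. At equal sums 8 of 29 were past it, where 8.58% of all genes were higher. *msp-55* had 100.1 FPKM in *nfki-1* and 65.1 FPKM in *malt-1* mutants, and *msp-51* had 113 FPKM in *nfki-1* and 73.4 FPKM in *malt-1* mutants. *msp-10* (1.67 FPKM in *nfki-1* and 0.732 FPKM in *malt-1* mutants) and *msp-32* (1.06 FPKM in *nfki-1* and 0.696 FPKM in *malt-1* mutants) were also past the fold at levels near the minimum. The *msp* genes are near-identical copies whose reads cannot be assigned with certainty, so the list is better read through its sum, which was 4038 FPKM in *nfki-1*, 3293 FPKM in *malt-1* and 2322 FPKM in *ilc-17.1* mutants, and 2970 FPKM in *npr-1* animals.

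Of 55 other sperm genes, 48 had a ratio above 1, 9 were higher and 0 lower, with a median log2 ratio of 0.31, where 51.2% of all genes had a ratio above 1 and 6.02% were higher. At equal sums 17 were higher, where 8.58% of all genes were. *ssq-2* had 221 FPKM in *nfki-1* and 116 FPKM in *malt-1* mutants, and *ssq-1* had 225 FPKM in *nfki-1* and 118 FPKM in *malt-1* mutants, with 70.1 FPKM (*ssq-2*) and 56.6 FPKM (*ssq-1*) in *npr-1* animals. *spe-12*, which encodes a sperm membrane protein needed to activate sperm, had 8.10 FPKM in *nfki-1* and 4.53 FPKM in *malt-1* mutants, and *spe-36*, which encodes a secreted sperm protein needed for fertilization, had 1.80 FPKM in *nfki-1* and 0.998 FPKM in *malt-1* mutants. Genes of the meiotic chromosome axis and synapsis, which act earlier in the germ line, were close to equal, with 0 of 21 past the fold, a median log2 ratio of -0.0029 that took the other sign at equal sums, and *him-3* at 72.0 FPKM in *nfki-1* and 74.3 FPKM in *malt-1* mutants. Of 19 Argonaute genes 0 were past the fold, with *csr-1*, a germline Argonaute gene, at 109 FPKM in *nfki-1* and 113 FPKM in *malt-1* mutants. Beside the counts of 0 in these lists, 90.7% of all genes lay within the fold. Of 27 core and linker histone genes 0 were higher and 1 was lower, where 6.02% of all genes were higher and 3.32% lower. That gene was *his-48*, with 1.47 FPKM in *nfki-1* and 2.23 FPKM in *malt-1* mutants.

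Of the 53 higher protein-coding genes at 100 FPKM and over, 11 were collagens, 3 vitellogenins, 2 oocyte and eggshell genes, 2 *msp* genes, 4 other sperm genes and 1 a transthyretin-related gene, and 30 belonged to none of the lists. Of those 30, named after their values were seen, *F52C12.6* had 226 FPKM in *nfki-1* and 110 FPKM in *malt-1* mutants, and *ule-3*, whose product is known from the lumen of the uterus, had 115 FPKM in *nfki-1* and 59.02 FPKM in *malt-1* mutants. The 9 lower ones were 7 genes of the mitochondrial genome, *F19B2.5* (75.8 FPKM in *nfki-1* and 118 FPKM in *malt-1* mutants) and *Y43F8B.2* (72.0 FPKM in *nfki-1* and 121 FPKM in *malt-1* mutants).

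**Figure D3:**
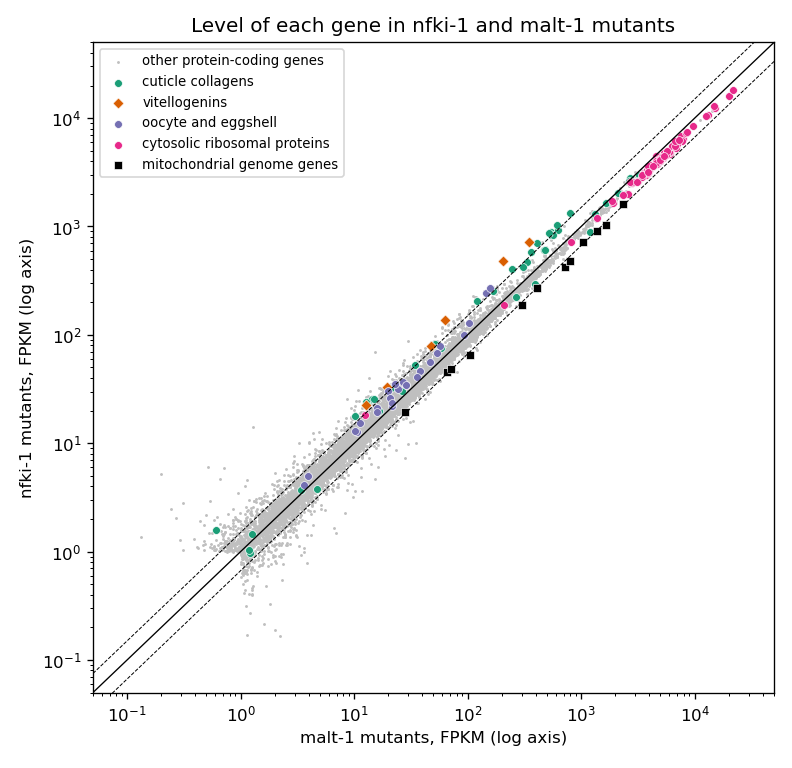
FPKM of each protein-coding gene in *nfki-1* (vertical) and *malt-1* mutants (horizontal), both on log axes, with the solid line at equality, the dashed lines at 1.5-fold, and 5 lists in color. The plot shows 11930 genes with more than 0.05 FPKM in both genotypes and leaves out 25. All 6 vitellogenin genes lie above the upper dashed line and all 12 mitochondrial genome genes below equality.

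Genes of the mitochondrial genome, which encode subunits of the respiratory chain and were made a list after their values were seen, were lower in *nfki-1* mutants throughout. All 12 had a ratio below 1, between 0.587 and 0.695, with a median log2 ratio of -0.60, and 7 of 12 were past the fold where 3.32% of all genes were lower. *COX3*, a subunit of cytochrome c oxidase, had 1604 FPKM in *nfki-1*, 2347 FPKM in *malt-1* and 1714 FPKM in *ilc-17.1* mutants, and 1834 FPKM in *npr-1* animals, and its ratio of 0.683 stayed just within the fold. *ND1*, a subunit of complex I, had 719 FPKM in *nfki-1*, 1037 FPKM in *malt-1* and 676 FPKM in *ilc-17.1* mutants, and 1079 FPKM in *npr-1* animals. *ND6*, also of complex I, had 64.9 FPKM in *nfki-1*, 105 FPKM in *malt-1* and 43.4 FPKM in *ilc-17.1* mutants, and 167 FPKM in *npr-1* animals. *malt-1* mutants were the highest genotype in 6 of the 12 genes, *COX3* among them, and not in the others, such as *ND1* and *ND6*. Summed over the list, FPKM was 5809 in *nfki-1*, 8929.9 in *malt-1* and 6137 in *ilc-17.1* mutants, and 7672 in *npr-1* animals. The gene with the lowest ratio, WBGene00010960, had 426 FPKM in *nfki-1* and 724 FPKM in *malt-1* mutants and shares its listed locus with *ND1*. At equal sums all 12 ratios were still below 1, with a median log2 ratio of -0.49, and 2 were past the fold. These genes are transcribed together as long RNAs, so they are not independent of each other.

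The nuclear genes of the respiratory chain differed in the same direction by less. All 45 genes named as complex I or *cox* subunits, also listed after their values were seen, had a ratio below 1, with a median log2 ratio of -0.19 and 0 past the fold. Among all genes 48.8% had a ratio below 1 and 90.7% lay within the fold. *cox-7C* had 1528 FPKM in *nfki-1* and 1745 FPKM in *malt-1* mutants, and *cox-6B* had 1382 FPKM in *nfki-1* and 1556 FPKM in *malt-1* mutants. At equal sums 41 of 45 remained below 1 and the median was -0.08.

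Ribosomal protein genes, the most abundant group of the table, lay below equality with none past the fold. Of 80 cytosolic ribosomal protein genes 79 had a ratio below 1, with a median log2 ratio of -0.25, while 72.4% of all 1656 genes at 100 FPKM and over had a ratio below 1. *rpl-41.2* had 18233 FPKM in *nfki-1* and 21560.3 FPKM in *malt-1* mutants, and *rpl-39* had 16041 FPKM in *nfki-1* and 19926 FPKM in *malt-1* mutants. The exception was *rpl-42*, chosen after its value was seen, at 18.4 FPKM in *nfki-1* and 12.4 FPKM in *malt-1* mutants. Together these genes summed to 384613 FPKM in *nfki-1*, 455683 FPKM in *malt-1* and 355082 FPKM in *ilc-17.1* mutants, and 449514 FPKM in *npr-1* animals, so that *malt-1* mutants and *npr-1* animals were on one side and the other mutants on the other. Since these genes make up a large part of all FPKM, they weigh in the scaling to equal sums, under which 76 of 80 were below 1 and the median was -0.13. Of 69 mitochondrial ribosomal protein genes 66 had a ratio below 1 (median log2 ratio -0.19), with *mrpl-12* at 165 FPKM in *nfki-1* and 195 FPKM in *malt-1* mutants and *mrpl-44* at 226 FPKM in *nfki-1* and 236 FPKM in *malt-1* mutants. Of 33 proteasome subunit genes 31 had a ratio below 1 (median log2 ratio -0.14), with *pas-3* at 338 FPKM in *nfki-1* and 399 FPKM in *malt-1* mutants and *pbs-1* at 333 FPKM in *nfki-1* and 378 FPKM in *malt-1* mutants. At equal sums 59 of the 69 mitochondrial ribosomal protein genes were below 1, with a median of -0.08. Of the 33 proteasome genes 22 were then below 1, with a median of -0.03.

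**Figure D4:**
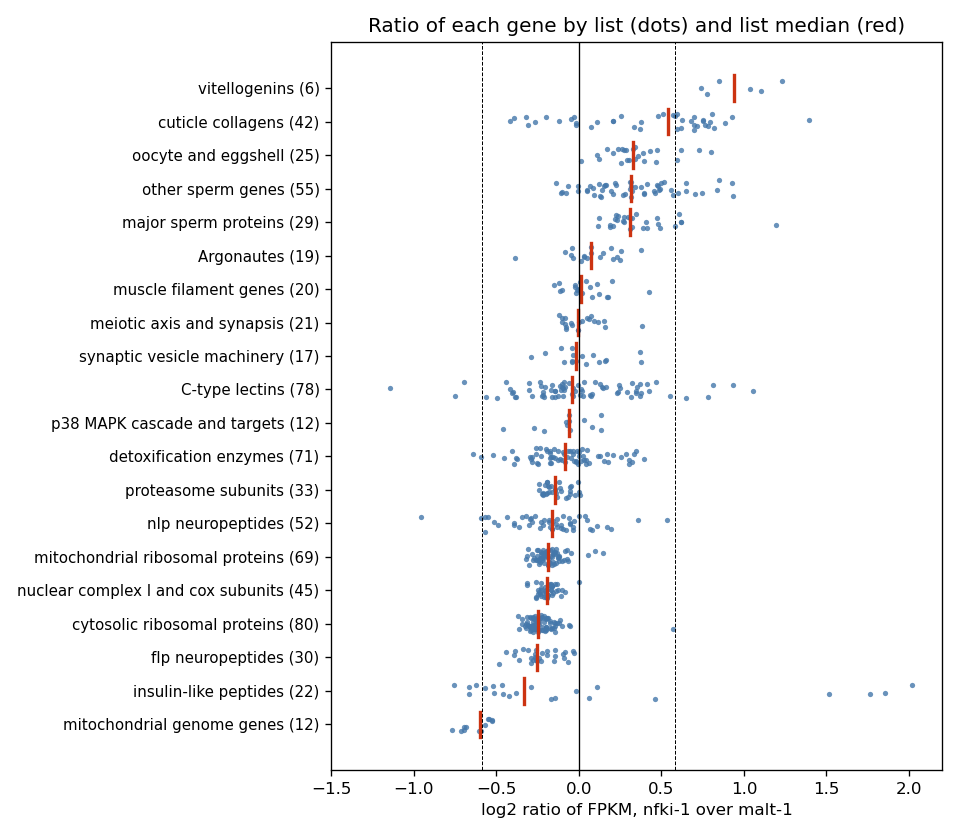
Log2 ratio of FPKM, *nfki-1* over *malt-1* mutants, for the genes of 20 lists, with 1 blue dot per gene, a red bar at each list's median and the number of genes in parentheses, where dashed lines mark 1.5-fold. Vitellogenin genes (median 0.94) stand at the upper end and genes of the mitochondrial genome (median -0.60) at the lower end, and the dots of the *flp* genes all lie below 0.

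Neuropeptide genes of the *flp* family were slightly lower in *nfki-1* than in *malt-1* mutants, and those of the *nlp* family less so. All 30 genes for FMRFamide-like peptides (*flp*) had a ratio below 1, between 0.715 and 0.981, with a median log2 ratio of -0.26 and 0 past the fold. Among all genes 48.8% had a ratio below 1 and 90.7% lay within the fold. *flp-14* had 82.2 FPKM in *nfki-1*, 90.9 FPKM in *malt-1* and 76.5 FPKM in *ilc-17.1* mutants, and 118.98 FPKM in *npr-1* animals. *flp-28* had 96.3 FPKM in *nfki-1*, 103 FPKM in *malt-1* and 81.8 FPKM in *ilc-17.1* mutants, and 101 FPKM in *npr-1* animals. Summed over the list, FPKM was 1019 in *nfki-1*, 1197 in *malt-1* and 974 in *ilc-17.1* mutants, and 1428 in *npr-1* animals, so that all mutants were below *npr-1* animals and *malt-1* mutants were the nearest to them. At equal sums 24 of 30 had a ratio below 1 and the median was -0.14. Of 52 *nlp* genes, which encode other neuropeptides, 42 had a ratio below 1 (median log2 ratio -0.16), and 2 were lower past the fold, where 3.32% of all genes were. These were *nlp-63* (1.198 FPKM in *nfki-1* and 2.32 FPKM in *malt-1* mutants) and *nlp-64* (7.81 FPKM in *nfki-1* and 11.8 FPKM in *malt-1* mutants). At equal sums 31 of the 52 *nlp* genes had a ratio below 1, the median was -0.05, and 1 was higher and 1 lower.

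Genes that mark neurons, or that process and release neuropeptides, were closer to equality. Of 12 neuron markers 0 were past the fold, with a summed FPKM of 491 in *nfki-1* and 524 in *malt-1* mutants, and of 17 genes of the synaptic vesicle machinery 0 were past the fold. *snb-1*, the synaptobrevin gene, had 207 FPKM in *nfki-1* and 238 FPKM in *malt-1* mutants, and *unc-64*, the syntaxin gene, had 56.9 FPKM in *nfki-1* and 58.2 FPKM in *malt-1* mutants. *egl-21*, a carboxypeptidase gene that acts in the maturation of neuropeptides, had 64.5 FPKM in *nfki-1* and 65.4 FPKM in *malt-1* mutants. *sbt-1*, a chaperone gene of the neuropeptide convertase, had 76.7 FPKM in *nfki-1* and 89.8 FPKM in *malt-1* mutants. The medians of these lists lay between -0.04 and -0.02 and turned positive at equal sums. Body wall muscle was also near equality, with 0 of 7 markers past the fold, *unc-27*, a troponin I gene, at 1432 FPKM in *nfki-1* and 1458 FPKM in *malt-1* mutants, and *unc-15*, the paramyosin gene, at 834 FPKM in *nfki-1* and 725 FPKM in *malt-1* mutants.

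Insulin-like peptide genes were past the fold in both directions. Of 22 with at least 1 FPKM 4 were higher and 4 lower, where 6.02% of all genes were higher and 3.32% lower, and 15 had a ratio below 1 (median log2 ratio -0.33). At equal sums 4 were higher and 1 was lower. *ins-25* had 4.596 FPKM in *nfki-1* and 1.13 FPKM in *malt-1* mutants, with 0.540 FPKM in *ilc-17.1* mutants and 1.41 FPKM in *npr-1* animals. *ins-21* had 3.44 FPKM in *nfki-1* and 0.952 FPKM in *malt-1* mutants, *ins-20* had 1.31 FPKM in *nfki-1* and 0.387 FPKM in *malt-1* mutants, and *ins-16* had 2.2005 FPKM in *nfki-1* and 0.770 FPKM in *malt-1* mutants. All 4 had their highest value in *nfki-1* mutants, at levels where 8.996% of protein-coding genes were higher. *ins-21*, *ins-20* and *ins-16* reached the minimum of 1 FPKM only in *nfki-1* mutants, so their direction follows from that minimum. None of the 4 reached 5 FPKM in either mutant. *ins-28*, which lies near *ins-25* on chromosome I, was on the other side, with 9.65 FPKM in *nfki-1* and 16.3 FPKM in *malt-1* mutants, and *ins-27* of the same cluster, the most abundant of the family, had 99.2 FPKM in *nfki-1* and 147 FPKM in *malt-1* mutants, a ratio of 0.674 just within the fold. The last 2 genes were chosen after their values were seen.

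Genes of innate immunity had list medians slightly below 0, most of which turned positive at equal sums, and few genes past the fold in either direction. Among all genes 6.02% were higher, 3.32% were lower and 90.7% lay within the fold. Of 12 genes of the p38 kinase cascade and its targets 8 had a ratio below 1 and 0 were past the fold, with *atf-7*, a transcription factor gene of that pathway, at 87.3 FPKM in *nfki-1* and 85.5 FPKM in *malt-1* mutants, and the median of -0.06 turned positive at equal sums. Of 78 C-type lectin genes 5 were higher (6.02% of all genes were) and 3 lower (3.32% of all genes were), and this list's median of -0.04 also turned positive at equal sums. The named lectin genes were of low level, such as *clec-260* with 11.96 FPKM in *nfki-1* and 6.81 FPKM in *malt-1* mutants, *clec-147* with 3.24 FPKM in *nfki-1* and 1.695 FPKM in *malt-1* mutants, *clec-99* with 1.96 FPKM in *nfki-1* and 0.943 FPKM in *malt-1* mutants, and *clec-224* with 0.916 FPKM in *nfki-1* and 2.02 FPKM in *malt-1* mutants. Of 42 genes of lysozymes and antimicrobial peptides 32 had a ratio below 1, 3 were higher and 5 lower, beside the same shares of 6.02% and 3.32% over all genes. Their median log2 ratio was -0.18, and at equal sums it was -0.06 with 24 of 42 below 1. *fipr-20* had 5.85 FPKM in *nfki-1* and 0.715 FPKM in *malt-1* mutants, while *fipr-24* of the same family had 3.63 FPKM in *nfki-1* and 11.7 FPKM in *malt-1* mutants. *dod-23*, a gene known from its response to the transcription factor DAF-16, had 17.2 FPKM in *nfki-1* and 9.42 FPKM in *malt-1* mutants, with 11.6 FPKM in *ilc-17.1* mutants and 11.42 FPKM in *npr-1* animals, and was the 1 of 9 genes of its list past the fold. The other 8 *dod* and *irg* genes had a ratio below 1, and the list median of -0.09 was 0.02 at equal sums. Of 8 genes of the intracellular pathogen response 6 had a ratio below 1 and 0 were past the fold, with a median of -0.10 that was 0.01 at equal sums.

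Metabolic and stress genes differed little, and only single genes were past the fold. Among all genes 90.7% lay within it. Of 18 glycolytic enzyme genes and 11 desaturase and elongase genes 0 were past the fold, with *aldo-2*, an aldolase gene, at 805 FPKM in *nfki-1* and 911 FPKM in *malt-1* mutants, and *fat-2*, a desaturase gene, at 1314 FPKM in *nfki-1* and 1457 FPKM in *malt-1* mutants. Among detoxification enzyme genes 2 of 71 were lower, *ugt-9* (2.18 FPKM in *nfki-1* and 3.395 FPKM in *malt-1* mutants) and *cyp-29A3* (1.61 FPKM in *nfki-1* and 2.43 FPKM in *malt-1* mutants). That is close to the 3.32% lower among all genes, and at equal sums 0 of the 71 were lower. Heat shock genes had 2 of 14 lower, the chaperone gene *hsp-70* (1.09 FPKM in *nfki-1*, 3.62 FPKM in *malt-1* and 0.649 FPKM in *ilc-17.1* mutants, and 1.04 FPKM in *npr-1* animals) and *hsp-12.6* (8.97 FPKM in *nfki-1*, 15.4 FPKM in *malt-1* and 16.3 FPKM in *ilc-17.1* mutants, and 6.66 FPKM in *npr-1* animals). Among all genes 3.32% were lower, and 6.82% among protein-coding genes between 1 and 5 FPKM, the level of *hsp-70*. *malt-1* mutants had the highest *hsp-70* value of the 4 genotypes, at a listed locus that 4 genes share. The superoxide dismutase gene *sod-5* had 1.54 FPKM in *nfki-1* and 0.665 FPKM in *malt-1* mutants, and the metallothionein gene *mtl-1* had 3.39 FPKM in *nfki-1* and 5.66 FPKM in *malt-1* mutants. *epg-5*, an autophagy gene, had 4.11 FPKM in *nfki-1* and 6.45 FPKM in *malt-1* mutants and was the 1 of 23 genes of its list past the fold, where 3.32% of all genes were lower. Of 15 genes of the HIF-1 and hydrogen sulfide response 0 were past the fold, with *hif-1* at 142 FPKM in *nfki-1* and 130 FPKM in *malt-1* mutants. None of 7 lipase genes, 20 muscle filament genes, 11 genes of neuropeptide processing and release or 2 pharynx markers with at least 1 FPKM was past the fold.

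Of 152 nuclear hormone receptor genes 2 were higher and 1 lower, a smaller part than the 6.02% and 3.32% of all genes, and at equal sums 5 were higher and 0 lower. *nhr-88* had 32.0 FPKM in *nfki-1* and 20.5 FPKM in *malt-1* mutants, with 41.9 FPKM in *ilc-17.1* mutants and 15.1 FPKM in *npr-1* animals, and *nhr-19* had 8.16 FPKM in *nfki-1* and 12.9 FPKM in *malt-1* mutants. Of 34 transthyretin-related genes 4 were higher (6.02% of all genes were), among them *ttr-14* with 274 FPKM in *nfki-1* and 167 FPKM in *malt-1* mutants and *ttr-42* with 4.51 FPKM in *nfki-1* and 2.07 FPKM in *malt-1* mutants. *her-1*, which encodes a secreted protein that directs male development, had 4.13 FPKM in *nfki-1* and 1.98 FPKM in *malt-1* mutants, with 0.478 FPKM in *ilc-17.1* mutants and 2.66 FPKM in *npr-1* animals. Of 10 male-specific genes 6 were below the minimum and 1 was listed at 0. Of the other 3, *her-1* was higher, where 6.02% of all genes were, and 2 lay within the fold with a ratio below 1. At equal sums 1 of the 3 had a ratio below 1.

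Many of the largest ratios came from short genes or genes of low level. Among 6153 genes with at least 5 FPKM in either mutant, a value above 0 in both and a locus of their own, the 15 highest ratios lay between 2.37 and 11.8 and the 15 lowest between 0.214 and 0.484. Of these, 4 of the highest and 7 of the lowest had no transcript of 300 bases or more in the reference annotation. Under 10 FPKM in both mutants were 6 of the highest and 7 of the lowest, and by these rules 6 of the highest and 4 of the lowest were neither. WBGene00077672 (listed at 20458190 to 20458347) is not in that annotation and was counted as not short. *Y38F2AL.12* (2317797 to 2318027), *Y44A6D.1* (20787416 to 20787623), *H39E20.1* (1396353 to 1396551) and *Y82E9BR.6* (1381445 to 1381627) were also counted as not short, although their listed intervals are shorter than 300 bases. *Y38F2AL.12* had 6.09 FPKM in *nfki-1* and 0.517 FPKM in *malt-1* mutants, with 7.21 FPKM in *ilc-17.1* mutants and 7.05 FPKM in *npr-1* animals, so that *malt-1* mutants were the genotype apart. *C12D8.21*, a short gene with a longest transcript of 249 bases, had 14.2 FPKM in *nfki-1* and 1.28 FPKM in *malt-1* mutants. It had 0.570 FPKM in *ilc-17.1* mutants and 0.435 FPKM in *npr-1* animals, and here *nfki-1* mutants were apart. *nep-4*, a gene of the neprilysin family of metalloproteases, had 5.36 FPKM in *nfki-1* and 2.00 FPKM in *malt-1* mutants. *Y51A2A.4* had 31.04 FPKM in *nfki-1* and 10.8 FPKM in *malt-1* mutants, and *K07A1.6* had 12.5 FPKM in *nfki-1* and 4.31 FPKM in *malt-1* mutants.

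*ZK180.8* had 87.3 FPKM in *nfki-1* and 30.01 FPKM in *malt-1* mutants, a ratio of 2.91. It is the 1 gene whose locus differs between the comparisons of the table, chromosome IV 4511440 to 4511583 here and 4511592 to 4511724 in the comparisons with *npr-1*, where it had 13.8 FPKM in *nfki-1* and 17.8 FPKM in *malt-1* mutants, so its direction depends on the interval. The other genes with the highest ratios were *fipr-20*, WBGene00077672, *Y116A8C.470*, *Y44A6D.1*, *C35E7.6*, *pqn-2*, *ZK354.3*, *C17F3.3* and *C17C3.5*.

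At the lower end, *K12H6.10* had 1.48 FPKM in *nfki-1* and 6.92 FPKM in *malt-1* mutants and was listed at 0 in *ilc-17.1* mutants and *npr-1* animals. *nspe-1*, a gene of a nematode-specific peptide family, had 7.33 FPKM in *nfki-1* and 28.3 FPKM in *malt-1* mutants, with 3.83 FPKM in *ilc-17.1* mutants and 18.5 FPKM in *npr-1* animals. In this gene *malt-1* mutants were on the side of *npr-1* animals, above the other mutants. *W02D7.11* had 8.74 FPKM in *nfki-1* and 23.4 FPKM in *malt-1* mutants, with 18.6 FPKM in *ilc-17.1* mutants and 1.85 FPKM in *npr-1* animals. *Y82E9BR.6* had 7.66 FPKM in *nfki-1* and 18.6 FPKM in *malt-1* mutants, with 15.9 FPKM in *ilc-17.1* mutants and 17.2 FPKM in *npr-1* animals, so that *nfki-1* mutants were apart. The other genes with the lowest ratios were *H39E20.1*, *F44D12.19*, *C07G1.15*, *fipr-24*, *ZK792.12*, *F26F2.11*, *C08E8.3*, *F57B1.9*, *Y43F8B.22*, *srab-16* and *F12A10.1*.

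Genes with very different values in *npr-1* animals could be almost equal in both mutants. The examples were chosen after their values were seen. *F59C6.18* had 2.09 FPKM in *nfki-1*, 2.03 FPKM in *malt-1* and 13.2 FPKM in *ilc-17.1* mutants, and 152 FPKM in *npr-1* animals. *exh-1* had 14.3 FPKM in *nfki-1*, 15.1 FPKM in *malt-1* and 35.8 FPKM in *ilc-17.1* mutants, and 141 FPKM in *npr-1* animals, and *C36C5.12*, its neighbor on chromosome V, had 1.78 FPKM in *nfki-1*, 1.89 FPKM in *malt-1* and 5.115 FPKM in *ilc-17.1* mutants, and 33.3 FPKM in *npr-1* animals. In the opposite direction, *T16G1.7* had 72.4 FPKM in *nfki-1*, 73.6 FPKM in *malt-1* and 88.5 FPKM in *ilc-17.1* mutants, and 8.19 FPKM in *npr-1* animals. Ratios of *nfki-1* over *malt-1* mutants in these 4 genes lay between 0.943 and 1.03. *cbp-1*, which encodes a histone acetyltransferase of the CBP family, had 27.8 FPKM in *nfki-1*, 26.8 FPKM in *malt-1* and 36.9 FPKM in *ilc-17.1* mutants, and 20.4 FPKM in *npr-1* animals.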

How the data were processed

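RNA of whole animals was sequenced in stranded polyA libraries with 50-base single-end reads. The authors trimmed reads with Trim Galore 0.4.3, aligned them with TopHat2 2.1.0, estimated expression with Cufflinks 2.2.1 and compared genotypes with Cuffdiff, per the submitters' notes and the paper's methods, and the build is not given in the sources used here. The deposited table holds 7 comparisons of 2 genotypes each, with 1 FPKM per gene and genotype, pooled over replicates by the authors, and 0 columns of values per sample. The authors' log2 fold changes, test statistics, p-values and q-values stand in other columns and were not used.

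From the deposited FPKM values of the comparison of *malt-1* with *nfki-1*, the ratio was computed with Python 3.11.15, pandas 2.3.3 and numpy 2.4.6, without a pseudocount, for genes with at least 1 FPKM in either genotype. The counting was tested on simulated data. Alternatives changed the fold, the filter, the pseudocount, the scaling and the genes included. Those on protein-coding genes, equal sums and the mitochondrial genome were chosen after seeing the data.

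The genes and the 41 gene lists were chosen with earlier results of these data known. Named were all genes of the pathway, the 15 highest and 15 lowest ratios among genes with at least 5 FPKM and a locus of their own, and in each list up to 4 genes past the fold with the largest change or, with none, up to 2 of the highest FPKM. Most other genes are marked in the text as chosen with their values in view. *vit-1* and *vit-3* complete their list, and *COX3*, *ND1* and *nep-17* come from lists made after the values were seen. A table of gene names covered 13349 of the 13992 genes, and 13892 were in the reference annotation (WBcel235, release 115), used for names, types and transcript lengths only. Coordinates are those of the deposited table, with starts counted from 1. Of the genes taken, 38.8% share their listed locus with another gene, so that the interval extends beyond the gene.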

Additional observations from a re-analysis of the deposited data

How the results depend on the processing

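The counts of genes past the fold in *nfki-1* over *malt-1* mutants, 804 higher and 444 lower, moved with the rules. They were 304 and 209 at 2-fold, 2427 and 1447 at 1.2-fold, 1988 and 1366 with no minimum, 456 and 191 with at least 5 FPKM in either genotype, 484 and 229 with only genes alone at their locus, and 491 and 235 with only protein-coding genes, the last chosen after seeing the data. These alternatives keep fewer or more genes or another fold by construction. Centring on the median gave 784 and 448. With 1 FPKM added to both values the counts were 845 and 610, of which 544 and 281 were among the 804 and 444, since genes listed at 0 in one genotype then also have a ratio. Values from the comparisons with *npr-1* gave 836 and 425, and there the log2 ratio of *ZK180.8* was -0.37 in place of 1.54, because the table gives another interval for that gene. With 1 FPKM added the log2 ratios of 12 named genes moved by more than 1.5-fold, all of them genes with under 2 FPKM in one of both genotypes, such as *C12D8.21* (2.74 in place of 3.47) and *ins-25* (1.39 in place of 2.02). The medians of vitellogenins (0.92 to 1.101), collagens (0.49 to 0.65), oocyte genes (0.30 to 0.44), *flp* genes (-0.26 to -0.14) and genes of the mitochondrial genome (-0.62 to -0.49) kept their sign under all alternatives run. No paired analysis was possible because the table has no values per sample, and leaving out each replicate could not be run for the same reason. The depth is unknown, so how far counting error reaches at low FPKM cannot be given.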

Other observations

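Families of proteases and small peptides, gathered after seeing the data, also had members on one side. All 18 *nep* genes, which encode metalloproteases of the neprilysin family, had a ratio of *nfki-1* over *malt-1* mutants above 1, with a median log2 ratio of 0.29. Past the fold was 1 of them, where 51.2% of all genes had a ratio above 1 and 6.02% were higher. The most abundant, *nep-17*, had 230.0 FPKM in *nfki-1* and 202 FPKM in *malt-1* mutants. Of 37 *nas* genes, which encode astacin metalloproteases, 23 were listed at 0 in every genotype and 7 were below 1 FPKM. Of the other 7, 3 were higher, where 6.02% of all genes were. These 3 are neighbors on chromosome V, and the listed locus of *nas-22* is shared by 3 genes. *nas-20* had 13.8 FPKM in *nfki-1* and 6.88 FPKM in *malt-1* mutants, *nas-21* had 2.91 FPKM in *nfki-1* and 1.30 FPKM in *malt-1* mutants, and *nas-22* had 11.3 FPKM in *nfki-1* and 7.02 FPKM in *malt-1* mutants. All 14 *nspc* genes, of a nematode-specific peptide family, had a ratio below 1, with a median log2 ratio of -0.25, and *nspc-16* (25.6 FPKM in *nfki-1* and 41.8 FPKM in *malt-1* mutants) and *nspc-17* (28.6 FPKM in *nfki-1* and 44.3 FPKM in *malt-1* mutants) were past the fold, where 3.32% of all genes were lower. At equal sums 18 of 18 *nep* genes stayed above 1 and 13 of 14 *nspc* genes below it.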
